A study of Mus musculus with 64 samples.

Results

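The genes that encode the proteasome were followed in 4 tissues of stressed and unstressed mice. Members were chosen by symbol alone, as every gene named Psma, Psmb, Psmc, Psmd, Psme, Psmf or Psmg with a number and, in 1 case, a further letter (Psme2b). The rule found 48 genes among the 17199 genes of the series: 18 core genes (Psma and Psmb), 25 regulatory genes (Psmc, Psmd and Psme) and 5 others (Psmf1 and the Psmg genes). The table of prefrontal cortex held 45 of them, those of hippocampus and hypothalamus 46 each and that of whole blood 38, and 36 were in all 4 tables.

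Total RNA was sequenced from male BALB/c mice aged 28 weeks. Controls were left unstressed, and the rest were kept for 9 weeks on unpredictable chronic mild stress (UCMS), a schedule of changing mild stressors used as a mouse model of depression. Each brain region had 8 control and 8 UCMS libraries and blood had 7 control and 9 UCMS libraries, 64 in all from 17 animals, and the animal codes in the titles tie the tissues of a mouse together, with 1 stressed mouse in blood only. The final stressor preceded tissue collection by 14 to 16 hours, so the values describe animals some hours after stress and not during it. All animals were of the same strain and sex, and none carried a transgene or drug treatment per the labels. Levels are log2 values that had been normalized within each tissue's table, their depth is unknown, and the tables of different tissues were normalized apart.

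The proteasome is the protease that degrades proteins tagged with ubiquitin. Its 20S core is a barrel of outer alpha rings (Psma genes) and inner beta rings (Psmb genes), of which Psmb5, Psmb6 and Psmb7 carry the standard catalytic sites. Interferon-inducible Psmb8, Psmb9 and Psmb10 can take their places to form the immunoproteasome, which trims peptides for antigen presentation. The 19S regulatory particle (Psmc and Psmd genes) binds, unfolds and feeds in the ubiquitylated substrate, whereas the Psme genes encode other caps and Psmf1 an inhibitor. Neurons use the system in synaptic protein turnover, and red cell precursors use it as they shed their organelles and proteins.

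Promoter sequences of 6 members are shown first because they carry the values described further on: Psma6 and Psmd10 had a p-value under 0.05 in a brain test, Psmd12 followed the 19S genes most closely in hippocampus, Psmb5 is a standard catalytic subunit, and Psme3 and Psmf1 went another way than the rest in blood. The sequences come from RefSeq's table for GRCm38.p6, which matched 41 of the 48 members, and give the 250 bases before the annotated start on the gene's own strand, 5′ to 3′. Capitals mark matches on either strand. The ETS motif searched was CGGAAG. The letters of the GC box were GGGCGG and those of the CCAAT box are its name. The core of an antioxidant response element was TGACNNNGC. No matches of different motifs overlapped in these sequences.
Psma6: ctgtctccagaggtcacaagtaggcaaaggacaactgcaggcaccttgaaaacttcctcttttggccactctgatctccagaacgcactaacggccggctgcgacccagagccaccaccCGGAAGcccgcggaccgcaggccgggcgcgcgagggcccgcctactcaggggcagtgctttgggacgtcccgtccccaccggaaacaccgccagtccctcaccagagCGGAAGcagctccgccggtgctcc
Psmd12: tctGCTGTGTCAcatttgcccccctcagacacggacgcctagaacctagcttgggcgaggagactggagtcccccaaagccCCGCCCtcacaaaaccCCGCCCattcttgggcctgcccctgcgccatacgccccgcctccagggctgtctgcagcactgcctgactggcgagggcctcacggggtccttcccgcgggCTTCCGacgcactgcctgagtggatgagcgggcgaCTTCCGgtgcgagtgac
Psmd10: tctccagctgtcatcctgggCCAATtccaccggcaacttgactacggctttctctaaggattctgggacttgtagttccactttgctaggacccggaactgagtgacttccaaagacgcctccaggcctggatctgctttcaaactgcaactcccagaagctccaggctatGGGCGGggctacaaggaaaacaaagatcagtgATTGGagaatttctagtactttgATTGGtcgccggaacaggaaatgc
Psmb5: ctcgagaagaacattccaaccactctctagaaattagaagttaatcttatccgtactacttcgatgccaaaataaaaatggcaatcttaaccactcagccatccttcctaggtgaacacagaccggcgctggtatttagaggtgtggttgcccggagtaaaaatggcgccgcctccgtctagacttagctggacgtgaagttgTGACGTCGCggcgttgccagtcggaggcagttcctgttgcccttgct
Psme3: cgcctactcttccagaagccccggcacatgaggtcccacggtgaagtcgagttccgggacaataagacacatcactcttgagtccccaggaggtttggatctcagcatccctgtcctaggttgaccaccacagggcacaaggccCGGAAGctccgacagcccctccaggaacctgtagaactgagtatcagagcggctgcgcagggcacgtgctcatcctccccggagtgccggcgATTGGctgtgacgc
Psmf1: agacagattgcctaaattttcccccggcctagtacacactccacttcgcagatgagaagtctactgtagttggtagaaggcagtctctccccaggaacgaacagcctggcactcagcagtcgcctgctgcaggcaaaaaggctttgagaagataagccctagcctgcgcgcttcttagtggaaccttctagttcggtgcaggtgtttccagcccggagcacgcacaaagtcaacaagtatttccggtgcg
They lie at chr12:55398575-55398824 (Psma6, plus strand, the second of its 2 listed starts), chr11:107479278-107479527 (Psmd12, plus), chrX:140956712-140956961 (Psmd10, minus), chr14:54617996-54618245 (Psmb5, minus), chr11:101315963-101316212 (Psme3, plus) and chr2:151741311-151741560 (Psmf1, minus).

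Over the 300 bases searched at each start, 250 before it and 50 after, the ETS motif was in 22 of 41 members (53.7%) against 18.8% of the 27025 genes in the table. It was shared by core genes such as Psma4, Psmb3 and Psmb4, by ATPases such as Psmc1, Psmc2, Psmc4 and Psmc6, and by Psmd11, Psmd12, Psmd14, Psme3 and Psme4, but the printed stretches of Psmd10, Psmb5 and Psmf1 hold none. A GC box was in 23 members (56.1%, all genes 38.2%) and a CCAAT box in 14 (34.1%, all genes 41.1%). The antioxidant response element core, a site of the NRF family of factors, was in 6 members (Psmb5, Psmb6, Psmc6, Psmd12, Psmd9 and Psme4), or 14.6% against 14% of all genes. The core of an interferon-stimulated response element was in 5 members (12.2%, all genes 3.99%), which were Psmb3, Psmd4, Psmd9, Psme1 and Psmg4. The inducible Psmb8, Psmb9 and Psmb10 were not among them. A GAS core (TTCNNNGAA) was in 3 members including Psmb8 (7.32%, all genes 9.55%), and a TATA box (TATAAA) in 4 (9.76%, all genes 15.7%). The motifs were picked after a look at the sequences, and a match is not evidence of binding.

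Before any comparison, 2 libraries stood apart from their groups. UCMS replicate 5 of prefrontal cortex deviated from its group's median by a median of 0.301 over all genes tested, against 0.0675 to 0.18 in the other 15 libraries, and UCMS replicate 3 of hippocampus by 0.295, against 0.058 to 0.124. They come from different animals, and the other tissues of both animals did not stand apart. Proteasome genes moved in them in opposite directions: the ATPase gene Psmc6 stood at -1.13 and -1.04 from its group's median, the deubiquitinase gene Psmd14 at -0.75 and -0.87, the alpha subunit gene Psma3 at -0.70 and -0.62 and the activator gene Psme4 at -0.62 and -0.73. In the same libraries Psmb10 was 0.46 higher in each, and the scaffold subunit gene Psmd3 was 0.40 and 0.39 higher. Across the 45 members the deviations of the 2 libraries correlated with r = 0.89, and across 13712 genes with r = 0.78, which is a description, since genes are not independent. Members with more exon blocks deviated further down (rho = -0.57 and -0.60 over 45 members, -0.15 and -0.13 over 11558 protein-coding genes). What sets these libraries apart was not tested, and values without them are given beside the results they move.

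Markers of the labelled tissues were present. The summed level of 7 neuron markers ran from 10.5 to 11.2 in the brain libraries, and the blood table lacked 5 of them, including Rbfox3. Red cell markers summed to 18.3 to 18.5 in blood, and in the brain they ran from 8.91 to 17.8, with hemoglobin RNA high in a few brain libraries. The tables of prefrontal cortex and hippocampus held 0 of 7 B cell markers and that of hypothalamus 4.

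Chronic stress moved no proteasome gene past the threshold in any tissue. With limma across all genes of a table and Benjamini-Hochberg adjustment at 0.05, 0 of 45 members passed in each brain region and 0 of 33 in blood, where background was 0.00% in each, since no gene at all passed. The smallest adjusted p of a member was 0.481 in blood, and among the regions prefrontal cortex had 0.987, hippocampus 0.990 and hypothalamus 1. At an unadjusted p under 0.05, 0 of 45 members against 2.18% of 14127 genes were found in prefrontal cortex, 1 of 45 against 2.95% of 14015 genes in hippocampus, 3 of 45 against 2.12% of 14539 genes in hypothalamus, and 0 of 33 against 10.8% of 7947 genes in blood. The control and UCMS libraries overlapped for every member in every table, and they were apart for 0.00% of genes tested in each brain region and 0.0252% in blood. Counted by direction, prefrontal cortex had 0 higher (background 0.977%) and 0 lower (1.20%), hippocampus 0 higher (1.67%) and 1 lower (1.28%), hypothalamus 1 higher (0.949%) and 2 lower (1.17%), and blood 0 higher (6.48%) and 0 lower (4.33%). Every other fit that was tried also called 0 members in each tissue.

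In the brain the intervals of most members were narrow. They are not adjusted for the number of genes tested, so they do not show what size of difference would have passed the threshold. The 95% interval of the difference lay within 25% of no change in either direction (0.32 on the log2 scale) for 38 of 45 members in prefrontal cortex (all genes tested 59.2%), 40 of 45 members in hippocampus (73.1%) and 43 of 45 members in hypothalamus (72.1%). In blood this held for 1 of 33 members, the 19S lid subunit gene Psmd8, against 2.73% of all genes, so the blood intervals leave room for larger differences. When the 3 brain regions of an animal were averaged it held for 45 of 45 members, against 90.7%.

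**Figure D1:**
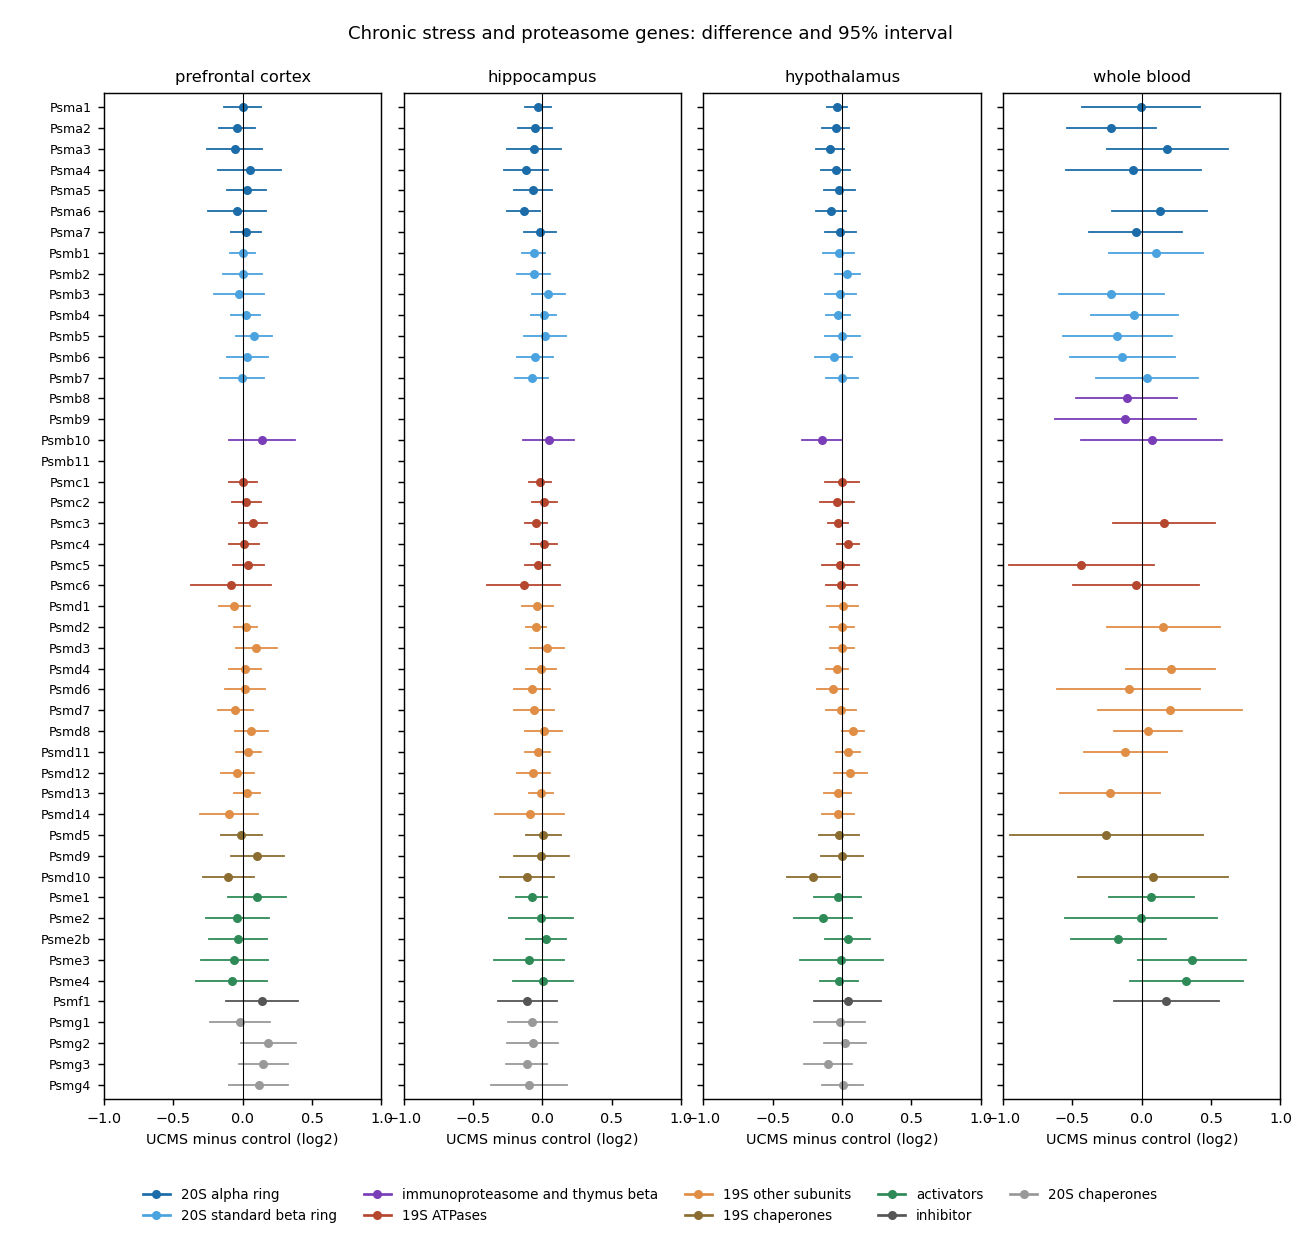
UCMS minus control difference of the log2 level (x axis) with its 95% interval for each tested member (y axis, coloured by role) in the 4 tables, from limma. Intervals in whole blood are wider than in the brain regions, and 4 brain intervals leave out 0, those of Psma6 in hippocampus and of Psmb10, Psmd10 and Psmd8 in hypothalamus.

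The alpha ring, whose subunits frame the gate of the 20S core, sat slightly lower in UCMS animals in 2 regions. All 7 Psma genes were below control in hippocampus (median difference -0.063) and in hypothalamus (median -0.046), where 49.9% and 49.5% of all genes tested were below control, while 4 of 7 were below in prefrontal cortex (median -0.0010). Without the hippocampal library that stood apart the count was 6 of 7 (median -0.024), and without that of prefrontal cortex 0 of 7 were below control there (median 0.034). Psma6 was the only alpha gene with an unadjusted p under 0.05. In hippocampus its level ran from 6.09 to 6.36 in controls (median 6.19) and from 5.85 to 6.21 in UCMS libraries (median 6.06). Of 8 UCMS libraries, 7 lay below the control median and 5 below the lowest control, but the ranges overlapped. The mean was 6.21 ± 0.096 in controls and 6.07 ± 0.12 under UCMS (SD, n = 8 each), a difference of -0.13 ± 0.056 (SE; unadjusted p = 0.0286, adjusted p = 0.990 with limma). Without UCMS replicate 3, the lowest library, it was -0.10 (unadjusted p = 0.0469). With the microglia score as a covariate it was -0.084 (unadjusted p = 0.167), and microglia markers in hippocampus had a median summed level of 8.85 in controls (highest 9.03) and 8.94 in UCMS libraries (highest 9.22). Their part in the alpha ring differences was not tested further. The gene lies at chr12:55384222-55418454 on the plus strand of GRCm38.

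The standard beta ring holds the catalytic sites. In prefrontal cortex 4 of its 7 genes were above control, in hippocampus 3 and in hypothalamus 2, with medians of 0.00038, -0.052 and -0.012. Without the libraries that stood apart 5 of 7 were above control in prefrontal cortex (median 0.013) and 1 of 7 in hippocampus (median -0.032). In the brain mean 2 of 7 were above control, and 0 of 7 without the 2 animals. Averaged over the 3 brain regions, Psmb5, the chymotrypsin-like subunit, had 5.44 ± 0.072 in controls and 5.47 ± 0.093 in UCMS animals (SD, n = 8 each; difference 0.034 ± 0.042). Psmb6, the caspase-like subunit, had 5.69 ± 0.087 and 5.66 ± 0.083 (difference -0.026 ± 0.043), and Psmb7, the trypsin-like subunit, 6.15 ± 0.061 and 6.12 ± 0.066 (difference -0.028 ± 0.034). Without the 2 animals whose libraries stood apart the differences were -0.00075, -0.045 and -0.00076. Each difference was smaller than the spread between animals, with adjusted p from limma of 0.962, 0.980 and 0.962. In blood the same genes differed by -0.18 ± 0.19, -0.14 ± 0.18 and 0.036 ± 0.18 (adjusted p = 0.722, 0.773 and 0.952).

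Of the immunoproteasome genes, only Psmb10 was measured in every tissue. Psmb9 was in the blood table alone, Psmb8 in blood and in hypothalamus (where it fell under the filter on low levels), and Psmb11, known as the thymus beta subunit, only in hippocampus and under the filter. In hypothalamus the level of Psmb10 ran from 4.39 to 4.73 in controls (median 4.60) and from 4.09 to 4.54 in UCMS libraries (median 4.46). All 8 UCMS libraries lay below the control median, 1 of them below every control, and the ranges overlapped. Its mean was 4.57 ± 0.12 in controls and 4.42 ± 0.14 under UCMS (SD, n = 8 each), a difference of -0.15 ± 0.066 (unadjusted p = 0.0397, adjusted p = 1 with limma). Of 27 alternatives, 12 gave an unadjusted p of 0.05 or more. Prefrontal cortex had 4.38 ± 0.25 in controls and 4.52 ± 0.22 under UCMS (adjusted p = 0.987). Hippocampus had 4.32 ± 0.12 and 4.37 ± 0.23, a difference of 0.044 ± 0.088 (adjusted p = 0.990) that was its most positive of any member and became -0.017 without the library that stood apart. The effect in hypothalamus minus that in prefrontal cortex had an unadjusted p of 0.0508 and an adjusted p of 1. For the brain mean Psmb10 had 4.42 ± 0.085 in controls and 4.44 ± 0.11 in UCMS animals (difference 0.012 ± 0.049).

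In blood, the 3 inducible subunit genes had overlapping groups. Psmb8 ran from 2.67 to 3.64 in controls (median 3.16, n = 7) and from 2.79 to 3.51 in UCMS libraries (median 2.98, n = 9), a difference of -0.11 ± 0.17 (adjusted p = 0.824 with limma). Psmb9 ran from 2.11 to 3.71 and from 2.33 to 3.65, a difference of -0.12 ± 0.24 (adjusted p = 0.872), and Psmb10 from 1.79 to 3.32 and from 1.89 to 3.33, a difference of 0.071 ± 0.24 (adjusted p = 0.931). The balance of an inducible subunit and its standard counterpart was also taken within each library, which removes any offset of the library. For Psmb10 minus Psmb7 the mean was -1.83 ± 0.18 in control and -1.97 ± 0.10 in UCMS hypothalamus (SD, n = 8 each), so that the groups lay -0.15 apart (exact permutation, two-sided, p = 0.0648, adjusted over 7 tests p = 0.454). In prefrontal cortex the same balance was -1.55 ± 0.37 in controls and -1.40 ± 0.33 under UCMS, and in hippocampus -1.80 ± 0.12 and -1.68 ± 0.36, with adjusted p of 0.774 in each by the exact permutation test. Without the libraries that stood apart the differences went from 0.14 to 0.038 in prefrontal cortex and from 0.12 to 0.015 in hippocampus. Psmb9 minus Psmb6 in blood was 0.43 ± 0.67 in controls and 0.46 ± 0.52 in UCMS animals, and Psmb8 minus Psmb5 was -0.32 ± 0.43 and -0.25 ± 0.44, with adjusted exact permutation p of 0.945 for both. Psmb8 minus Psmb5 in hypothalamus was -2.50 ± 0.40 in controls and -2.70 ± 0.53 under UCMS (adjusted exact permutation p = 0.774). Psmb10 minus Psmb7 in blood was -0.19 ± 0.65 and -0.16 ± 0.58 (adjusted exact permutation p = 0.945). None of the 7 balances passed after adjustment, and their sign does not compare numbers of transcripts.

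The 6 ATPase genes of the 19S base (Psmc1 to Psmc6), which unfold the substrate, stayed near 0 in the brain. Prefrontal cortex had a median difference of 0.017, hippocampus -0.026 and hypothalamus -0.0090 over the 6 genes. Psmc6 had the most negative difference of any member in hippocampus, -0.13 ± 0.12 (unadjusted p = 0.295, adjusted p = 0.990), but 7 of 8 UCMS libraries lay within the control range. Controls ran from 4.90 to 5.16 (median 5.09) and UCMS libraries from 4.03 to 5.11 (median 5.07), and the lowest was replicate 3, the library that stood apart. Without it the difference was -0.0047 (unadjusted p = 0.901).

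**Figure D2:**
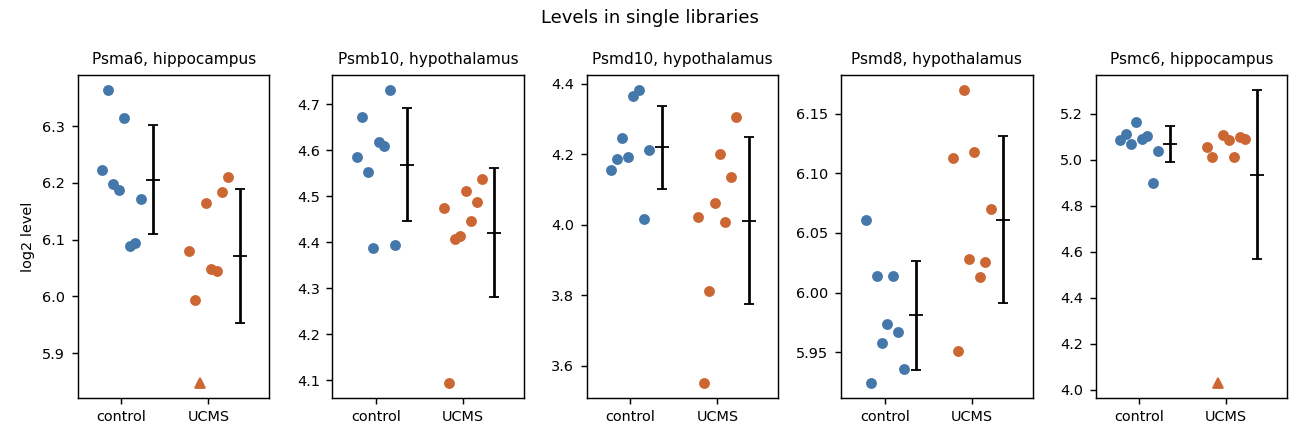
Log2 level (y axis) of Psma6 and Psmc6 in hippocampus and of Psmb10, Psmd10 and Psmd8 in hypothalamus in each control (blue) and UCMS (orange) library, with the mean and SD in black. The groups overlap in every panel, and the triangle, UCMS replicate 3 of hippocampus, is the lowest library for Psma6 (5.85) and for Psmc6 (4.03).

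Psmd10 encodes gankyrin, a chaperone that binds an ATPase of the 19S base while the particle is assembled, and it was the member with the smallest p among the UCMS tests, reached in the brain mean. In hypothalamus it ran from 4.02 to 4.38 in controls (median 4.20) and from 3.55 to 4.31 in UCMS libraries (median 4.04). Of 8 UCMS libraries, 7 were below the control median and 3 below the lowest control. The mean was 4.22 ± 0.12 in controls and 4.01 ± 0.24 under UCMS (SD, n = 8 each), a difference of -0.21 ± 0.091 (unadjusted p = 0.0361, adjusted p = 1 with limma). It was also below control in prefrontal cortex (3.66 ± 0.17 and 3.56 ± 0.16, difference -0.10, unadjusted p = 0.253) and in hippocampus (3.73 ± 0.24 and 3.62 ± 0.084, unadjusted p = 0.254). As the mean of the 3 regions in each animal, it ran from 3.76 to 4.09 in controls (median 3.83) and from 3.64 to 3.81 in UCMS animals (median 3.74). All 8 UCMS animals were below the control median and 5 below the lowest control. The difference of the brain mean was -0.14 ± 0.048 (unadjusted p = 0.00935, adjusted p = 0.959), 1 of 45 members at an unadjusted p under 0.05 against 3.62% of 13517 genes (0 higher, background 1.49%, and 1 lower, background 2.13%). Without the 2 animals whose libraries stood apart it was -0.13 (unadjusted p = 0.0269). In blood Psmd10 had 2.78 ± 0.55 in controls and 2.86 ± 0.55 in UCMS animals. The gene lies at chrX:140948429-140956728, minus strand, and the brain mean shares its libraries with the region tests, so it is no independent support for them.

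Among the other 19S subunits, Psmd8, a lid subunit, was higher in hypothalamus. It ran from 5.92 to 6.06 in controls (median 5.97) and from 5.95 to 6.17 in UCMS libraries (median 6.05), with 7 of 8 UCMS libraries above the control median and 4 above the highest control. The difference was 0.080 ± 0.037 (unadjusted p = 0.0460, adjusted p = 1 with limma), about 5.71% on the linear scale, and 13 of 27 alternatives gave an unadjusted p of 0.05 or more. In the brain mean it was 0.050 ± 0.037 (adjusted p = 0.959), and 0.013 without the 2 animals. Psmd14, the deubiquitinase of the lid, had a brain mean of 5.21 ± 0.065 in controls and 5.14 ± 0.16 in UCMS animals (difference -0.072 ± 0.059), which became 0.0061 without the 2 animals. Psmd4, a ubiquitin receptor, had 5.64 ± 0.043 and 5.63 ± 0.068 (difference -0.010 ± 0.032, and -0.040 without the 2 animals).

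The caps and the inhibitor gave no difference beyond the spread in the brain. Psme4, which encodes the PA200 activator, had a brain mean of 3.65 ± 0.068 in controls and 3.62 ± 0.14 in UCMS animals (difference -0.034 ± 0.056, adjusted p = 0.982), and 0.030 without the 2 animals. Psme2b, which has a single exon block, is a near copy of Psme2, so reads could be split between them and both levels are uncertain. The 4 Psmg genes, whose products help to assemble the 20S core, were 3 above and 1 below control in prefrontal cortex and 0 above and 4 below in hippocampus. Psmg2 had the most positive difference of any member in prefrontal cortex, where 7 of 8 UCMS libraries were above the control median. It ran from 3.31 to 3.66 in controls and from 3.31 to 3.93 in UCMS libraries (difference 0.18 ± 0.094, unadjusted p = 0.0668, adjusted p = 0.987), and was 0.22 (unadjusted p = 0.0320) without the library that stood apart. Psmg3 was the only member at an unadjusted p under 0.05 in a test of unequal UCMS effects between tissues, with -0.26 for hippocampus minus prefrontal cortex (unadjusted p = 0.0484, adjusted p = 1, background 1.61% of genes) and -0.25 for hypothalamus minus prefrontal cortex (unadjusted p = 0.0426, adjusted p = 1, background 2.43%). Over the 6 pairs of tissues, 0 members passed after adjustment, and no gene did either except 1 (0.0140%) for blood minus hypothalamus. At an unadjusted p under 0.05, 0 members were found for hypothalamus minus hippocampus (background 2.26%) and 0 of 31 for blood minus prefrontal cortex (8.70%), hippocampus (9.90%) or hypothalamus (7.53%).

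Core and regulatory genes are set side by side here by their medians under UCMS. In prefrontal cortex the median difference was 0.00038 for the core and 0.0085 for the regulatory genes, with 0.0056 for all genes tested. In hippocampus it was -0.052 and -0.034 (all genes 0.00038), but -0.024 and -0.014 without the library that stood apart, and -0.040 and -0.011 with the microglia score as a covariate. Hypothalamus had -0.030 and -0.010 (all genes 0.00075), with a core median of -0.011 without control replicate 3 and -0.050 without hemoglobin-rich libraries. Prefrontal cortex without its library that stood apart had 0.033 and 0.018. The medians of the brain mean were -0.023 and -0.0083 (all genes 0.0011), and -0.018 and -0.0017 without the 2 animals. Blood had -0.053 and 0.044 (all genes -0.010), with 10 of 15 core and 8 of 17 regulatory genes below control against 51.5% of all genes, and its core median was 0.13 with the red cell score as a covariate. In hippocampus 11 of 15 core and 18 of 25 regulatory genes were below control, in hypothalamus 13 of 15 and 19 of 25, and in prefrontal cortex 7 of 15 and 11 of 25 (48.0% of all genes). For the brain mean 12 of 15 and 18 of 25 were below (49.0% of all genes). Without the library that stood apart these counts were 13 and 17 in hippocampus and 2 and 9 in prefrontal cortex. The members move together across libraries, so the directions of 45 genes are not separate observations, and no test was made of them.

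How closely the genes moved together was measured as the correlation of each gene, after removal of group means, with the mean of the other members of its part, over 16 libraries of a table. The median r of the core was 0.48, 0.34 and 0.57 in the brain tables, in the order prefrontal cortex, hippocampus and hypothalamus, and 0.50 in blood, where all other genes had medians of -0.055, 0.078, 0.20 and 0.00090. For the 19S particle it was 0.39, 0.50, 0.59 and 0.20, against -0.048, 0.011, 0.24 and -0.0063. Without the libraries that stood apart the core had 0.55 in prefrontal cortex and 0.46 in hippocampus, and the 19S particle 0.25 and 0.51. Psmb7 (0.83) and Psma2 (0.79) led in prefrontal cortex, Psmd12 (0.87), a lid subunit gene, and Psmc1 (0.85) in hippocampus (Psmd9 at 0.80 and Psmd12 at 0.78 without the library that stood apart), Psmb4 (0.84) and Psmb1 (0.82) in hypothalamus, and Psma7 (0.79) in blood. These are descriptions with no test, and libraries of a table share their normalization. The mean core level of a library ranged from 5.31 to 5.54 in prefrontal cortex and from 5.47 to 5.66 in hippocampus. Hypothalamus ranged from 5.65 to 5.85 and blood from 2.72 to 3.35.

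Some members did not follow their part. Psmb10 had the lowest r of the core in each brain region, at -0.50, -0.52 and -0.12, but 0.35 in blood. Without the libraries that stood apart, in which Psmb10 was high, it was still the lowest of the core, at -0.28 in prefrontal cortex and -0.33 in hippocampus. The 19S genes also had low members. Their lowest r was -0.54 in prefrontal cortex (Psmd3), -0.57 in hippocampus, 0.034 in hypothalamus and -0.13 in blood. Without the libraries that stood apart it was -0.093 in prefrontal cortex and -0.17 in hippocampus. The inducible Psmb8 and Psmb9 had the lowest r of the core in blood (0.16 each), where they correlated with each other (r = 0.81, among the 3 highest of 528 pairs). The 2 genes are neighbours on chromosome 17. Psme3, which encodes the nuclear PA28 gamma cap, and the inhibitor gene Psmf1 formed a high pair in hypothalamus (r = 0.82) and, without the libraries that stood apart, in prefrontal cortex (0.81) and hippocampus (0.90). Both genes stood higher in the blood table than in the brain tables. Hemoglobin RNA was high in 2 libraries of prefrontal cortex, 3 of hippocampus and 4 of hypothalamus. The part of blood RNA in this pair was not tested.

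**Figure D3:**
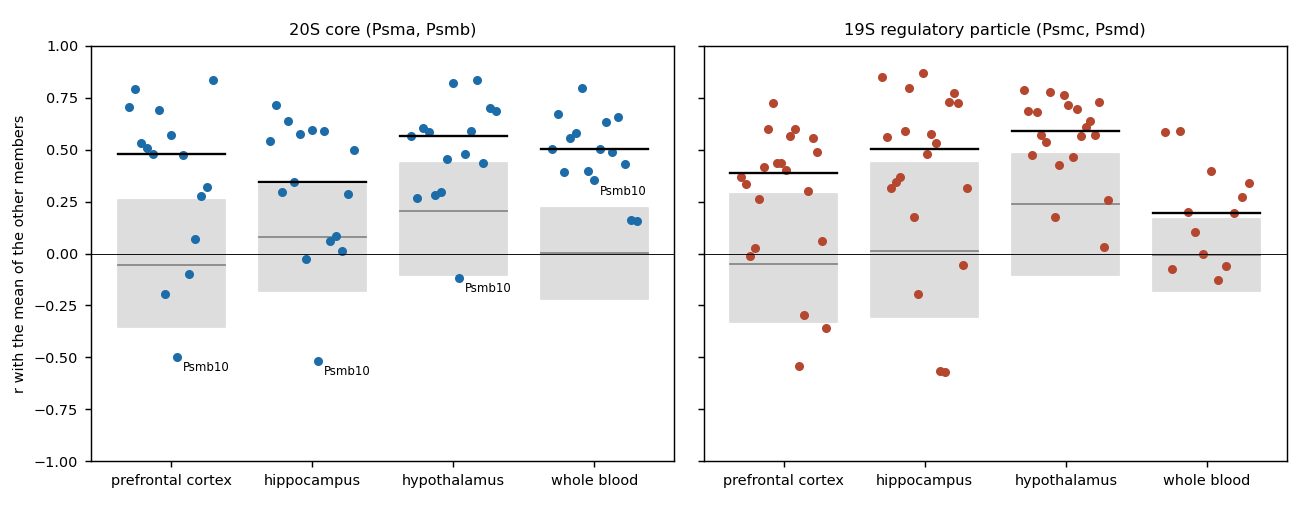
Pearson r (y axis) of each gene with the mean of the other members of its part over the 16 libraries of a table, after removal of group means, for core genes (left) and 19S genes (right). Black lines are medians of members, grey lines and boxes the median and quartiles of all other genes, and Psmb10 is the lowest core gene in the 3 brain tables.

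Levels of the members differed between the tables, which were normalized apart, so these values are set side by side with no test. In blood, 34 of the 36 members shared with prefrontal cortex were lower (median -2.36), as were 85.9% of all genes in both tables (median -1.24). All 14 shared core genes were lower in 15 of 15 animals, as were 63.1% of all genes. Psme3 and Psmf1 went the other way: Psme3 had 6.44 ± 0.42 in blood (SD, n = 16) and 5.01 ± 0.23, 5.15 ± 0.25 and 5.25 ± 0.29 in prefrontal cortex, hippocampus and hypothalamus. Psmf1 had 5.28 ± 0.37 in blood and 4.24 ± 0.26, 4.28 ± 0.21 and 4.57 ± 0.23 in the regions. Both were higher in blood than in prefrontal cortex in 15 of 15 animals. In bulk tissue a smaller share of cells of a type and less RNA per cell cannot be told apart. Hypothalamus was above prefrontal cortex for 41 of 45 members and for 9956 of 15278 genes in both tables (median 0.26, all genes 0.13). In all 16 animals 22 members (48.9%, all genes 18.9%) were higher, led by Psme2b (0.76 ± 0.25), Psma6 (0.66 ± 0.20), Psma2 (0.61 ± 0.15) and Psmd12 (0.60 ± 0.16). The level of Psme2b is uncertain, and Psme2, of which it is a near copy, differed by 0.025 ± 0.28 and was higher in 7 of 16 animals.

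**Figure D4:**
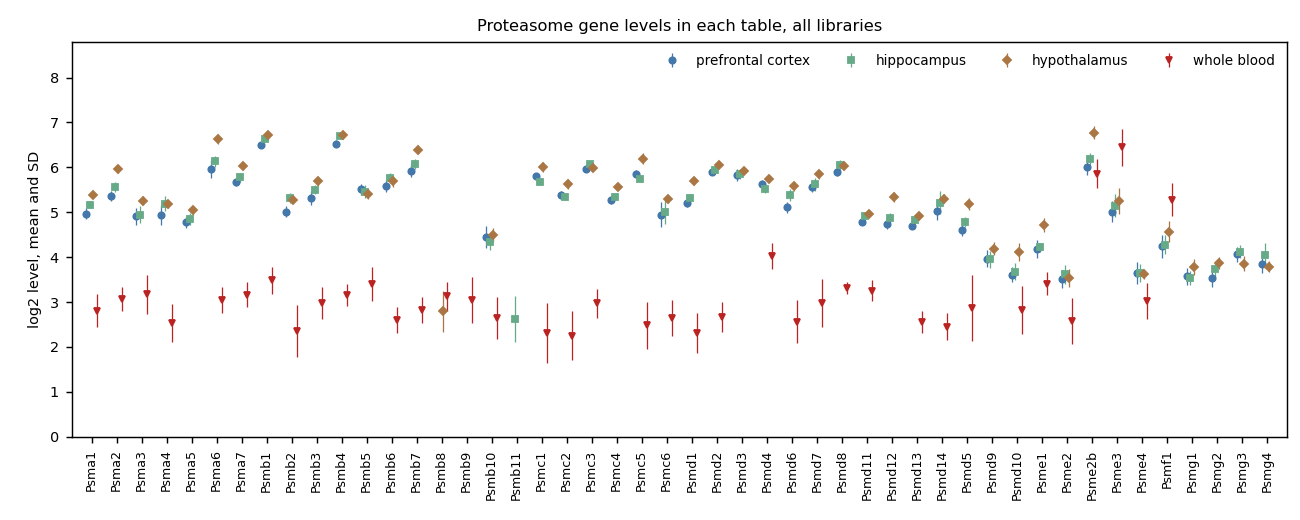
Mean log2 level and SD (y axis) of each member (x axis) over the 16 libraries of each table. In blood (red triangles) Psme3 and Psmf1 lie above their values in the 3 brain regions, while core genes measured in both lie below theirs except Psmb8 against hypothalamus, and the tables were normalized apart.

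Psme3 also had the most positive difference under UCMS in blood and Psmc5, a 19S ATPase gene, the most negative, neither past the threshold. Psme3 ran from 5.62 to 6.57 in controls (median 6.30, n = 7) and from 6.22 to 7.51 in UCMS libraries (median 6.41, n = 9), with 8 of 9 UCMS libraries above the control median and 3 above the highest control. The difference was 0.36 ± 0.19 (unadjusted p = 0.0678, adjusted p = 0.481 with limma). Psmc5 ran from 2.24 to 3.46 in controls (median 2.58) and from 1.43 to 3.02 in UCMS libraries (median 2.43), a difference of -0.44 ± 0.25 (unadjusted p = 0.0964, adjusted p = 0.511). Psme4 differed by 0.32 ± 0.20 (2.84 ± 0.46 and 3.16 ± 0.31) and Psmd4 by 0.21 ± 0.15 (3.91 ± 0.30 and 4.12 ± 0.25), or by 0.12 without control replicate 3. Cell markers were read beside these groups with no test. A red cell score was the mean z-score of 8 red cell and reticulocyte markers. It ran from -2.17 to 0.62 in controls (median -0.20) and from -0.40 to 1.44 in UCMS animals (median 0.19). The low end of the controls was replicate 3 alone, and the next lowest control was at -0.55. The summed level of 10 platelet markers ran from 10.9 to 11.5 in controls and from 9.72 to 11.3 in UCMS animals. With the red cell score as a covariate the differences were 0.057 for Psme3, 0.10 for Psme4, 0.037 for Psmd4 and -0.32 for Psmc5, and with the platelet score 0.045, 0.18, 0.24 and -0.47.

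The blood members differed in how they followed the red cell score over the 16 libraries. All 15 core genes had a negative r (median -0.49), where 54.2% of 7936 other genes were below 0, and 0 of the 15 passed by r. Regulatory genes went both ways, with 10 of 17 below 0 and 7 above (median r -0.016), the lowest being Psmd13 (-0.61). By rho 3 core genes passed after adjustment, all negative: the alpha gene Psma1 (rho = -0.68, adjusted p = 0.0350 by permutation), and the beta genes Psmb3 (rho = -0.68, adjusted p = 0.0350 by permutation) and Psmb6 (rho = -0.66, adjusted p = 0.0367 by permutation). Their r was -0.55, -0.55 and -0.54, with an adjusted permutation p of 0.0916 for each. These values pool both groups. Among the 7 controls r was -0.68, -0.63 and -0.21, and among the 9 UCMS libraries -0.48, -0.14 and -0.82. Of 33 relations tested by r, 4 passed, all positive: Psme3, Psmf1, Psmd4 and Psme4. Psme3 had r = 0.90 (permutation p = 3e-05, adjusted p = 0.00099) and rho = 0.86 (permutation p = 8e-05), with r = 0.92 among the 7 controls and 0.95 among the 9 UCMS libraries. Psmf1 had r = 0.80 (permutation p = 0.00021, adjusted p = 0.00347) and rho = 0.68 (permutation p = 0.00464). Psmd4 had r = 0.75 (permutation p = 0.00067, adjusted p = 0.00737) and rho = 0.69 (permutation p = 0.00392). Psme4 had r = 0.71 (permutation p = 0.00118, adjusted p = 0.00973), but its rho of 0.62 missed the threshold after adjustment (permutation p = 0.0117, adjusted p = 0.0542). Without the 2 libraries farthest from the median score, control replicate 3 and UCMS replicate 7, r was 0.82 for Psme3, 0.56 for Psmf1, 0.59 for Psmd4 and 0.52 for Psme4. The core genes then ran from -0.71 (Psmb6) to 0.12 (Psma6), with Psmb10 at 0.018, so they were no longer all negative. Control replicate 3, which had the lowest score, also had the highest mean core level (3.35). Over all 16 libraries, an r above 0.5 was found for 4 of 33 members and 13.6% of other genes, and an r below -0.5 for 7 of 33 and 7.43%. The core gene with the lowest r was Psma7 (-0.63, permutation p = 0.00984, adjusted p = 0.0649). The part of red cell content in the group differences was not tested beyond these values.

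**Figure D5:**
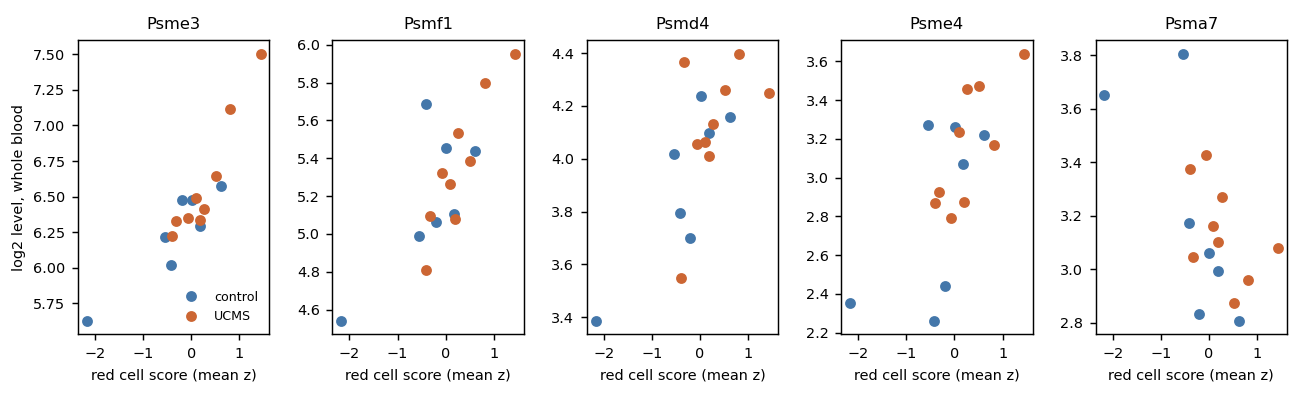
Log2 level in whole blood (y axis) against the red cell score (x axis, mean z-score of 8 markers) in each control (blue) and UCMS (orange) library. Psme3, Psmf1, Psmd4 and Psme4 rise with the score (r = 0.90, 0.80, 0.75 and 0.71), and the core gene Psma7 has a negative r that missed the threshold (-0.63).

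Other genes of the ubiquitin-proteasome pathway were read from a list, of which 36 were tested in each brain region and 33 in blood, and 0 passed after adjustment. They were 19 above and 17 below control in prefrontal cortex, 16 and 20 in hippocampus, 15 and 21 in hypothalamus and 20 and 13 in blood, with median differences of 0.0049, -0.017, -0.0069 and 0.052. At an unadjusted p under 0.05 there were 0 in prefrontal cortex (background 2.18%) and 0 in hypothalamus (2.12%). Hippocampus had 2 higher (1.67%) and 1 lower (1.28%), and blood 2 of 33 higher (6.48%) and 0 lower (4.33%). In hippocampus the ubiquitin ligase gene Ubr4 was higher (5.82 ± 0.063 and 5.96 ± 0.10, difference 0.13, unadjusted p = 0.0117). Ubb, a polyubiquitin gene, was lower (8.89 ± 0.10 and 8.77 ± 0.10, difference -0.12, unadjusted p = 0.0317), both with an adjusted p of 0.990 from limma. Ubb was -0.096 (unadjusted p = 0.0546) without the library that stood apart and -0.083 (unadjusted p = 0.160) with the microglia score. Ubr4 was also 0.079 higher in the brain mean (unadjusted p = 0.0253, adjusted p = 0.959). In prefrontal cortex the smallest p values of this list and of the antigen list were those of the interferon factor Irf1 (-0.26, unadjusted p = 0.132), the conjugating enzyme Ube2k (-0.17, unadjusted p = 0.156, and -0.065 without the library that stood apart) and the activating enzyme Uba1 (0.056, unadjusted p = 0.169). In hypothalamus they were those of Nfe2l1 (0.082, unadjusted p = 0.119), Ubr4 (0.099, unadjusted p = 0.138) and the shuttle factor Ubqln1 (0.067, unadjusted p = 0.155).

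In blood the deubiquitinase gene Usp14 was higher by 0.42 ± 0.19 (unadjusted p = 0.0401, adjusted p = 0.458 with limma), as was AI314180, the older symbol of the proteasome adaptor Ecpas, by 0.36 ± 0.17 (unadjusted p = 0.0492, adjusted p = 0.459). With the red cell score as a covariate these were 0.23 (unadjusted p = 0.244) and 0.19 (unadjusted p = 0.264), and Usp14 was 0.29 without control replicate 2. Nfe2l1, the transcription factor that raises proteasome genes when degradation is blocked, differed by 0.017 ± 0.033 in the brain mean and by -0.10 ± 0.17 in blood. Pomp, the maturation factor of the 20S core, differed by -0.0096 ± 0.027 and -0.12 ± 0.16. Of 19 antigen processing and interferon genes tested in blood, 8 were above and 11 below control. B2m, the light chain of class I molecules, was lower by 0.44 on the log2 scale (8.44 ± 0.20 and 7.99 ± 0.44, unadjusted p = 0.0149, adjusted p = 0.442), and by 0.077 with the platelet score as a covariate. The level of Psmb10 was also set against a score of the antigen genes, and 0 of 4 relations passed (r = 0.34 in prefrontal cortex and in blood, adjusted p = 0.399 by permutation). Without the 2 libraries farthest from the median score, r went from -0.25 to 0.59 in hypothalamus and from 0.34 to 0.65 in blood. It stayed at 0.34 in prefrontal cortex and went from -0.11 to 0.20 in hippocampus. Within controls and UCMS libraries, r was 0.41 and -0.65 in hypothalamus and -0.093 and 0.77 in blood. The same values were 0.66 and 0.15 in prefrontal cortex and 0.094 and -0.18 in hippocampus.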

How the data were processed

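After ribosomal RNA depletion, 100 ng of RNA entered a strand-specific kit, per the labels' protocols. GRCm38.p4 is named as the build in the submitters' processing notes, and for the aligner, the counter and its use of strand the tool is not given in the sources used here. Each tissue has 1 deposited table of normalized values, read here as log2 levels equalized between libraries, both inferred from the values. Sequencing depth is unknown, so no counting interval is given.

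All columns had a sample (0 without). limma 3.58.1 (R 4.3.3) was run per table, two-sided and with its prior variance following the level, on genes above the lowest 10% by mean, and p-values were adjusted by Benjamini-Hochberg over all genes of a table. Uncertainties after ± are SD with n, or SE for differences. The script was checked on simulated data. Permutation tests used scipy 1.17.1, exact for balances and otherwise with 100000 resamples, and balances needing Psmb8 or Psmb9 were possible only where both genes of a pair were in the table, giving 7 of the 12 planned.

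Members and gene lists were chosen with earlier results of these data known. Named genes are members at an unadjusted p under 0.05, the largest rise and fall per tissue, the catalytic subunits, Psmd14, Psmd4 and Psme4, and, of the pathway and antigen lists, the 3 smallest p values per tissue with Nfe2l1 and Pomp. A gene that this rule names is not reported here. Psmb2, Psmc1, Psmc2, Psmd1 and Psmd14 fell under the filter in blood. Gene positions are from GENCODE M21. Same-numbered libraries were not taken as pairs. Deviations correlated above 0.1 in 6 of 8 pairs in prefrontal cortex (median r 0.17), which does not settle the point there. Hippocampus and hypothalamus had 3 of 8 each, and blood 2 of 7.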

Additional observations from a re-analysis of the deposited data

Results flagged for a closer look

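For 16 named members, each group of a table was checked for a library far from the others, and 17 of 116 groups had one, where chance flags about 1 in 20 groups by the rule used; the groups share libraries, so the counts were not tested against it. UCMS replicate 5 of prefrontal cortex, which stood apart over all genes, was far below the others for Psma6 (5.42), Psmd14 (4.31) and Psmc6 (3.92). UCMS replicate 3 of hippocampus, the other such library, was far below for Psmb7 (5.72), Psmd14 (4.36), Psmc6 (4.03) and Psme4 (3.01). Control replicate 8 of hippocampus was low for Psmb6 (5.46) and Psmd10 (3.20), and control replicate 1 there was high for Psmc5 (5.88). Control replicate 1 of prefrontal cortex was high for Psme3 (5.71). In hypothalamus UCMS replicate 1 was high for Psme4 (3.83), UCMS replicate 2 low for Psmb10 (4.09) and control replicate 7 low for Psmd14 (5.07). In blood UCMS replicate 7 was low for Psmb5 (2.25), UCMS replicate 8 low for Psmb7 (2.20) and UCMS replicate 1 low for Psmd4 (3.55). The cause of these values was not tested.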

How the results depend on the processing

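Each of 71 results was recomputed with other low-level filters, prior variances, library weights, centring, marker scores as covariates, libraries left out and a replicate block, 1868 values in all. The count of members past the threshold was 0 in each, and 1819 values were counted as unchanged. For single genes this meant the same direction and call. For medians it meant a move smaller than the SD of the members' mean level between libraries, whatever the sign. The blood core median turned its sign within that bound, to 0.13 with the red cell score and 0.069 with the platelet score. With library weights the sign turned for Psmb8 (0.019) and Psmb9 (0.026) in blood and for Psmb10 (-0.020), Psme4 (0.015) and Nfe2l1 (-0.014) in the brain mean. Without the libraries that stood apart, a choice made after seeing the data, it turned for Psmb10 in hippocampus (-0.017) and for Psmb5 (-0.00075), Psmb10 (-0.036), Psmd14 (0.0061) and Psme4 (0.030) in the brain mean. Without hemoglobin-rich libraries it turned for Psmd4 in the brain mean (0.0044), and with the microglia score for Psmc6 in hippocampus (0.020). In blood it turned with the platelet score for Psmb5 (0.17), Psmb6 (0.069) and Psmb9 (0.049), and with the red cell score for Psmb9 (0.031). Without the 2 animals numbered BS it turned for Psmb10 (-0.020), Psmb9 minus Psmb6 (-0.10) and Psmb10 minus Psmb7 (-0.16). A block on the replicate number, which was not shown to pair the samples, leaves out the same 2 animals in blood. It gave the same values there (-0.020, -0.10 and -0.16), and called no member. With 1 library left out, values ranged from -0.017 to 0.095 for Psmb10 in hippocampus. In blood they ranged from -0.031 to 0.13 for Psmb7, -0.067 to 0.19 for Psmb10, -0.016 to 0.14 for the regulatory median, -0.056 to 0.16 for Psmb8 minus Psmb5, -0.22 to 0.11 for Psmb9 minus Psmb6 and -0.077 to 0.22 for Psmb10 minus Psmb7. In the brain mean they ranged from -0.0092 to 0.035 for Psmb10, -0.028 to 0.0021 for Psmd4 and -0.021 to 0.0016 for Pomp. The cause was not tested. Without control replicate 3 of hypothalamus, its medians were 0.0014 for all members and 0.0025 for regulatory members, and the core median was -0.011. In prefrontal cortex the core median ranged from -0.0073 to 0.033 and the regulatory median from -0.0047 to 0.026 with 1 library left out, and in blood the core median from -0.11 to 0.032. Depth is unknown, and the spread of blood libraries limits what could be seen there.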
